A study of Mus musculus with 2 samples.

Results

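The genes described here are 54 genes of DNA replication and of S phase, the part of the cell cycle in which the genome is copied. They were measured in splenic regulatory T cells (Tregs), the CD4+Foxp3+ T cells that restrain immune responses, on 1 Affymetrix array per genotype. The mice either carried a Dominant negative form of TGF-beta receptor II (DNR) or were wild type (WT). All animals had the C57BL/6 strain background, were 10 weeks old and, for the DNR group, are described as naive. The sources used here do not give the promoter of the DNR receptor, the number of mice behind each RNA or the way Foxp3 was seen in the sort. The genes came from a fixed list, and every probe set that the platform annotation assigns to exactly 1 of them was taken. This gave 118 probe sets for 53 of the 54 genes, of 18193 genes with a probe set in the whole table, and Chaf1a had none.

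Chromosome copying starts at origins, where the origin recognition complex, CDC6 and CDT1 load the MCM helicase during G1 phase. Kinases and cyclin E then switch the helicase on, DNA polymerases copy both strands behind it, and the cell raises its supply of deoxynucleotides. Transcription of much of this machinery is driven by E2F factors, which the retinoblastoma family of pocket proteins holds back in resting cells. T cells that rest in G0 make little of it, so these transcripts are commonly read as a mark of cycling T cells.

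The values are MAS5 signals, which combine the probe pairs of a probe set into 1 intensity on a linear scale. Each gene is represented by the probe set that is brightest on average, and signals under a floor of 110.9, the higher of the arrays' medians, were set to the floor before a ratio was taken. A gene counts as measured when that probe set exceeds the floor on 1 array or both. This was so for 52 of the 53 genes, and 50 exceeded it on both. The log2 ratio is DNR over WT, so positive values mean a higher signal in DNR Tregs. With 1 array per genotype there is no test of a genotype difference, and a difference is described by its size against a threshold of 2-fold. In RNA from bulk cells, a larger share of cells in S phase and more RNA per cell cannot be told apart.

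Promoter sequences show what part of these genes share outside the array data. Promoter windows of RefSeq (build GRCm38.p6), each 300 bases long from 250 bases before to 50 after a transcription start site, were found for 45 of the 54 genes. They were searched on both strands for the E2F site, spelled TTTCGCGC, TTTGGCGC, TTTCCCGC or TTTGCCGC. Orc1 and Pola1 are shown because both had a ratio above 2-fold and a site before the start. Mcm5, Mcm6 and Mcm7 are shown as subunits of 1 complex, and Rfc3 because it had a site but the lowest ratio of the 52 measured genes described below. Each stretch is the 180 bases that end just before the start site, 5′ to 3′ on the gene's strand, with E2F sites in capitals. In Rrm2, which had no E2F site in its windows and is shown for its large ratio, the capitals mark a CCAAT box instead.

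Orc1 (chr4:108579274-108579453, plus strand): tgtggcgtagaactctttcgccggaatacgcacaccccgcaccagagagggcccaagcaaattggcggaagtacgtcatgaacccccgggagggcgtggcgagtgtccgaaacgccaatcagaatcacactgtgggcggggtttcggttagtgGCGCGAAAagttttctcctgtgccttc
Pola1 (chrX:93632156-93632335, minus strand): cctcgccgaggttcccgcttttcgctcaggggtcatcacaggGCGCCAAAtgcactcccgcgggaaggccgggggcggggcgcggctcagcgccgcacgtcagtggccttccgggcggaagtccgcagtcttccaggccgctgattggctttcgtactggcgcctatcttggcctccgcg
Mcm5 (chr8:75109329-75109508, plus strand): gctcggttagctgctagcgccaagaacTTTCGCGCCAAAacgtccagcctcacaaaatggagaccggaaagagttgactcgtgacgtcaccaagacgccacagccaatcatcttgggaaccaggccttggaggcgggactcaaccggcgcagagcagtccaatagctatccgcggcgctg
Mcm6 (chr1:128359706-128359885, minus strand): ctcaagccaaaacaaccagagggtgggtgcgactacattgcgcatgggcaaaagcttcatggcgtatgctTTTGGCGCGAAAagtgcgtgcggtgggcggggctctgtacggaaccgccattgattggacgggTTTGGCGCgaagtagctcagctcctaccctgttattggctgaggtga
Mcm7 (chr5:138171884-138172063, minus strand): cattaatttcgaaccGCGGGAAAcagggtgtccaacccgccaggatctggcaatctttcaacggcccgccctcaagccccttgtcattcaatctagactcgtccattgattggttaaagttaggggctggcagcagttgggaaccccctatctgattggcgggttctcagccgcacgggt
Rfc3 (chr5:151651209-151651388, minus strand): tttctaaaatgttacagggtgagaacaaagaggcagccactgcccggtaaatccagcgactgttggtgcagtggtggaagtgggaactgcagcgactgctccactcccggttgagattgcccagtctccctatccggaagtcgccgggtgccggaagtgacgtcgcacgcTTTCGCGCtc
Rrm2 (chr12:24708074-24708253, plus strand): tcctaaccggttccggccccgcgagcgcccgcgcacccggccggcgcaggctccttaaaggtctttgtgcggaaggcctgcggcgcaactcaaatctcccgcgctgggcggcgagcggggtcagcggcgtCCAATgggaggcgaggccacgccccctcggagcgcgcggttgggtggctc

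An E2F site was found in 17 of the 45 genes with a promoter window (37.8%), against 704 of all 27025 genes in the promoter table (2.61%) and 447 of the 9640 measured genes with a window (4.64%). The windows had similar base composition, with a median of 61.3% G and C for the 55 windows of these genes and 60.3% for those of all measured genes. Among windows between the lower and upper quartile of that composition (54.3% to 66.2%), the site was present in 12 of 22 of these genes and in 5.18% of 4922 measured genes. Matches numbered 24, or 22 sites once overlapping matches were merged, and 1 match overlapped another of the searched motifs. In 10 of the 17 genes a match began before the start site, as in the printed stretches, where Mcm5 and Mcm6 have overlapping matches on opposite strands. The CCAAT box, spelled CCAAT, was found in 25 of the 45 genes (55.6%) against 41.1% of all genes in the table. The CHR element, spelled TTTGAA and known from promoters of late cell cycle genes, was found in 10 (22.2%). Its share was 20.2% of all genes in the table and 14.4% of the 9640 measured genes with a window. Among windows in the same range of composition, it was present in 4 of 22 of these genes and in 10.9% of 4922 measured genes. A match is a run of letters and does not show that a factor binds there.

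**Figure D1:**
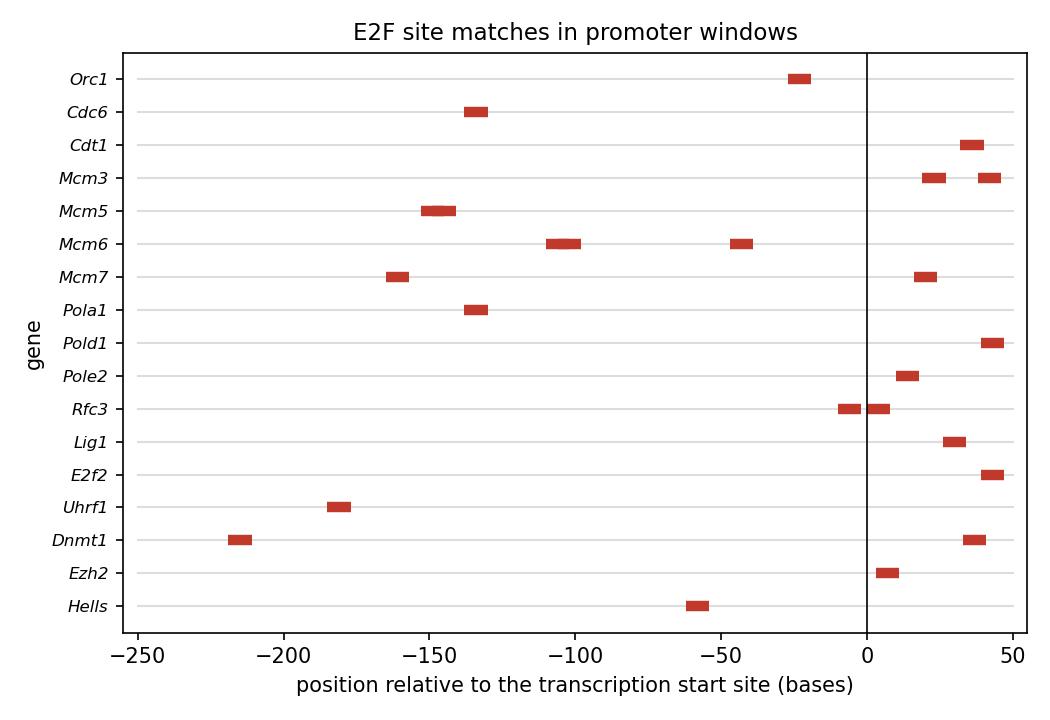
Positions of E2F site matches (red bars, 8 bases each) in promoter windows of the 17 genes that have one, in bases relative to the transcription start site. Grey lines span the window from 250 bases before to 50 after the start, and windows of alternative start sites of a gene are drawn on 1 line. Orc1, Pola1, Mcm5, Mcm6 and 6 other genes have a match before the start, and the other 7 have one only after it.

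Genes with and without an E2F site had similar array ratios. The 17 measured genes with an E2F site had a median log2 ratio of 0.51, and 15 of them had a higher signal in DNR Tregs. The 26 measured genes with a window but no site had a median of 0.52, and 21 were higher. Of the 7 genes in these 2 groups with a ratio of at least 2-fold, 2 (Orc1 and Pola1) had a site and 5 did not. Among the 430 other measured genes with an E2F site the median was -0.02, and 13 (3.02%) were at least 2-fold higher, where 4.0% of all measured genes were.

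DNR Tregs had a higher signal than WT Tregs for most of the replication machinery, by moderate amounts. Of the 52 measured genes 45 were higher (86.5%), where 51.4% of the 11927 measured genes were higher. At least 1.5-fold higher were 23 (44.2%, against 12.8% of all measured genes) and 0 were at least 1.5-fold lower (against 9.85%). At least 2-fold higher were 8 (15.4%, against 4.0%), namely Orc1, Pola1, Pole, Fen1, Rfc5, Rrm2, Tk1 and Brca1, and 0 were at least 2-fold lower (against 2.93%). The median log2 ratio was 0.51, a 1.42-fold higher signal, and it was 0.01 over all measured genes. Ratios ran from -0.28 for Rfc3 to 1.53 for Tk1, with quartiles of 0.20 and 0.75. Against the share of all genes, the count past 2-fold depended on the floor. Without a floor, 8 of 53 replication genes (15.1%) were at least 2-fold higher and so were 19.9% of all 18193 genes, so that the share of the replication genes was no longer the larger. The share with a higher signal of any size was 86.8% against 51.9% in that setting. These counts are of genes on 2 arrays and say nothing about the spread between mice.

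**Figure D2:**
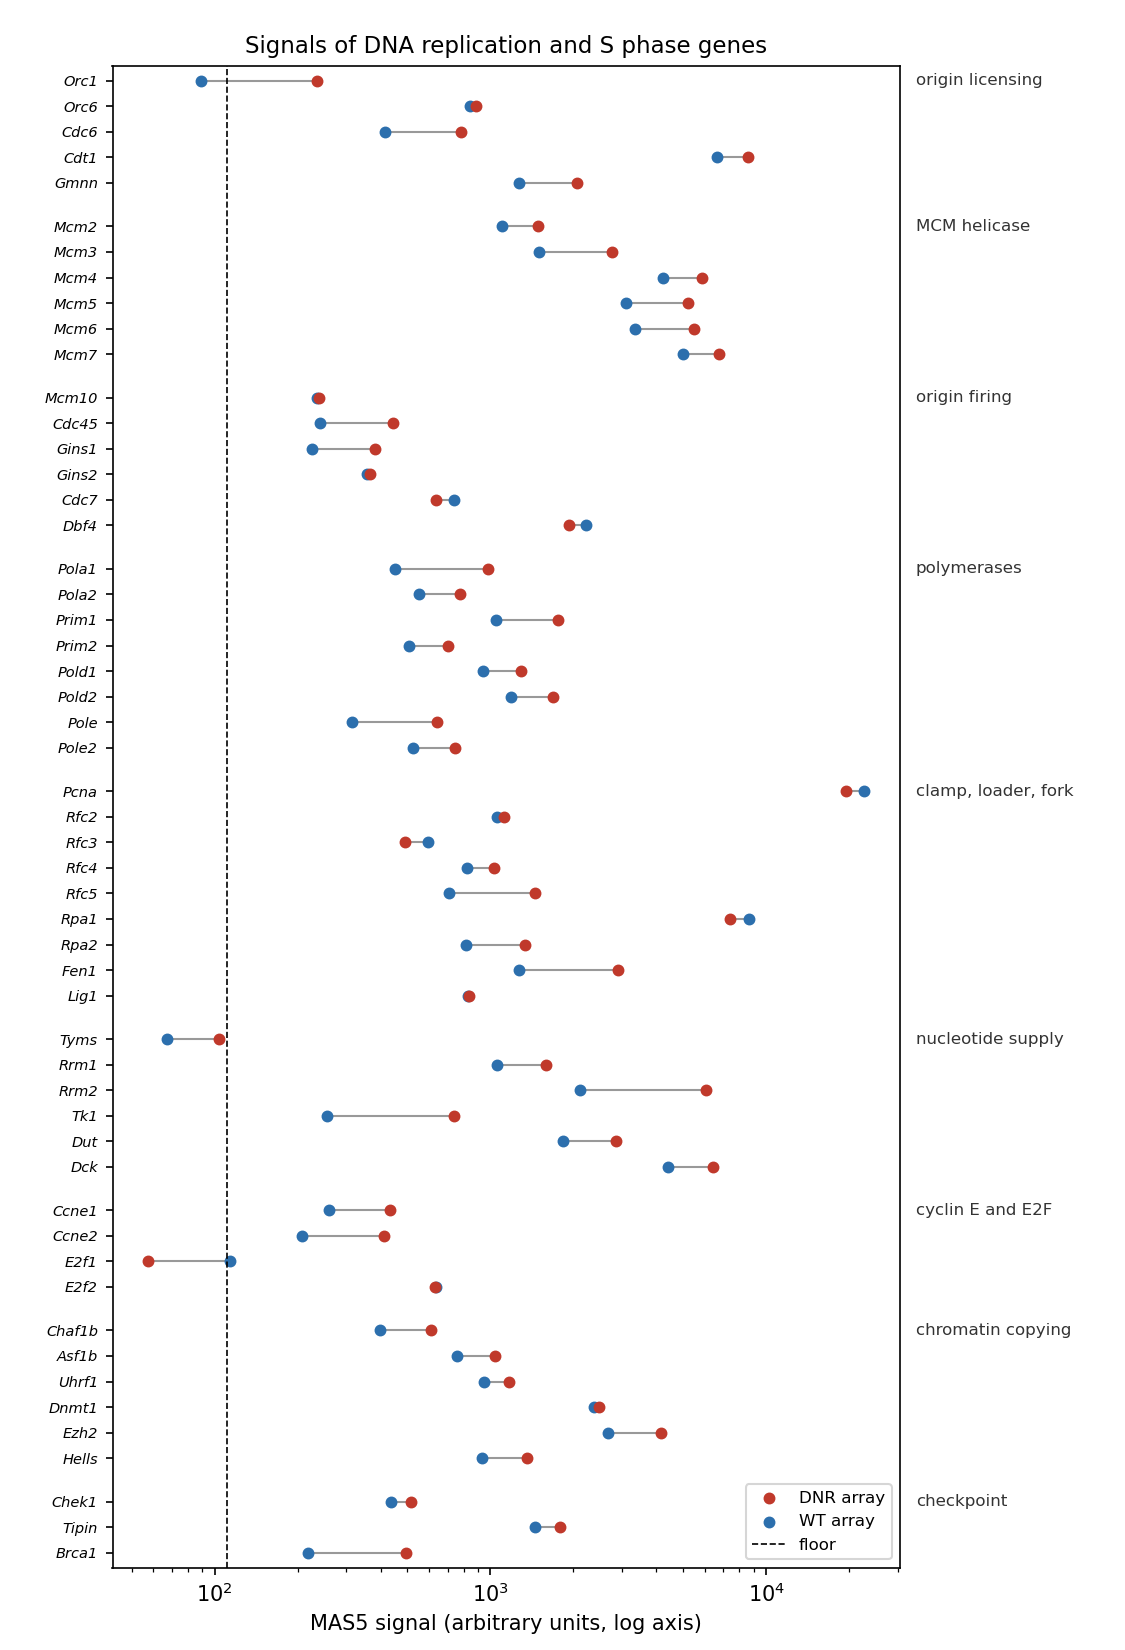
MAS5 signals (log axis, arbitrary units) of the 53 genes with a probe set, grouped by role, on the DNR array (red) and the WT array (blue), with the floor of 110.9 as a dashed line. Red lies to the right of blue for most genes, most widely for Rrm2 and Tk1, and to the left for Cdc7, Dbf4, Pcna, Rfc3, Rpa1, E2f1 and, barely, E2f2.

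The largest ratios belonged to enzymes that make deoxynucleotides. Tk1, thymidine kinase, which salvages thymidine, had 735 units in DNR and 255 in WT cells, 2.88-fold higher. Rrm2, the regulatory subunit of ribonucleotide reductase, which makes deoxynucleotides from ribonucleotides, had 6075 and 2122, 2.86-fold higher. The other 2 probe sets of Rrm2 gave log2 ratios of 1.45 and 1.30, so all 3 were past 2-fold. Tk1 has a single probe set. Rrm1, the catalytic subunit that pairs with RRM2, was 1.51-fold higher (1585 against 1053), although a second probe set with signals of 309 and 332 gave a log2 ratio of -0.10. Dut, the enzyme that keeps uracil out of DNA, was 1.56-fold higher (2853 against 1829.5). Dck, deoxycytidine kinase, which salvages other deoxynucleosides, was 1.45-fold higher (6393 against 4407). The 5 measured genes of this group were thus all higher, with a median of 0.64. Tyms, thymidylate synthase, was not above the floor on either array (104 and 67.2) with the best of its 4 probe sets, so no ratio is given.

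Other enzymes of nucleotide synthesis differed by small amounts with their representative probe sets. Of 20 measured genes of purine, pyrimidine and folate metabolism outside the list above, 14 were higher and 6 lower, and 0 were at least 2-fold different. Their log2 ratios ran from -0.48 to 0.61, with a median of 0.11 against 0.01 over all measured genes. Some of their other probe sets passed 2-fold, in both directions. These gave 1.42 for Paics, at least 1.88 for Gart and 1.35 for Shmt2, but -1.07 for Atic and -1.01 for Gmps.

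The 6 subunits of the MCM2-7 helicase all had a higher signal in DNR Tregs. Mcm3 had 2771 in DNR and 1500.1 in WT cells, 1.85-fold higher. Mcm5 had 5193 and 3106, 1.67-fold higher, and Mcm6 had 5487 and 3346, 1.64-fold higher. Mcm4 was 1.39-fold higher (5854 against 4210.2), Mcm2 1.35-fold (1490.0 against 1104) and Mcm7 1.35-fold (6741 against 5000.3). The subunits form a ring in which each is present once, and none of them reached 2-fold by its representative probe set. The group median was 0.59. The representative probe sets of Mcm3, Mcm5 and Mcm7 may bind several transcripts. Without such probe sets Mcm3 had a log2 ratio of 0.65, Mcm5 of 0.24 (773 against 657) and Mcm7 of 0.17 (1279 against 1133), and the group median was 0.45. Their probe sets that exceeded the floor on both arrays numbered 16, of which 15 were higher. A second probe set of Mcm2 was past 2-fold, at 1.12, and 1 of 4 such probe sets of Mcm3 was lower, at -0.60 with signals of 222 and 336. Probe sets above the floor on the DNR array alone gave at least 1.30 for Mcm5 (274 against 3.02) and at least 1.11 for Mcm6 (240 against 38.9). A probe set of Mcm3 above it on the WT array alone (13.5 against 166) gave -0.59 or lower.

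Factors that load the helicase were also higher, by unequal amounts. Orc1, the subunit of the origin recognition complex that cycling cells make anew in each cycle, was above the floor on the DNR array alone (235 against 89.6), so its ratio of at least 2.12-fold is a bound. Its second probe set had 173 and 110. Cdc6, which helps the origin complex to load MCM proteins, was 1.89-fold higher (786 against 416). Cdt1, the other loading factor, was 1.30-fold higher (8630 against 6657), but its second probe set gave -0.26. Gmnn encodes geminin, the inhibitor of CDT1 that prevents origins from being loaded again, and it was 1.62-fold higher (2059 against 1270.1). Orc6, another origin complex subunit, was nearly equal (887 against 841). All 5 genes had a higher DNR signal, with a median of 0.70 that includes Orc1 at its bound.

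The factors that switch the loaded helicase on differed in direction. Cdc45 and Gins1 encode partners that bind MCM2-7 to form the active helicase. Cdc45 had 444 in DNR and 241 in WT cells, 1.84-fold higher, and its second probe set, above the floor in WT cells alone (56.3 against 126), gave -0.19. Gins1 had 383 and 226, 1.70-fold higher. Gins2, a partner of GINS1 in the same complex, was nearly equal (366 against 357), and so was Mcm10, which helps origins to fire (238 against 235). Cdc7 and Dbf4 are the kinase and its activating subunit that phosphorylate MCM proteins. Cdc7 was 1.16-fold lower (635 against 736) and Dbf4 1.16-fold lower (1925 against 2231). The median of the 6 genes was 0.03, and it was -0.01 with quantile normalization and also without probe sets that may bind several transcripts.

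All 8 polymerase genes were higher in DNR Tregs. Pola1, the catalytic subunit of the polymerase that starts each new strand, had 978 and 450.5, 2.17-fold higher. Pole, the catalytic subunit of the leading strand polymerase, had 640.2 and 316, 2.03-fold higher. The ratios of both stayed past 2-fold in each of the 8 alternative settings. Each has 1 probe set above the floor, so only quantile normalization and centring on the median ratio could change these ratios. The other 6 polymerase genes lay between 1.37-fold and 1.68-fold. These were Prim1 and Prim2, the primase that lays RNA primers (1.68-fold and 1.39-fold), Pola2 (1.41-fold) and Pole2 (1.43-fold), accessory subunits, and Pold1 and Pold2 of the lagging strand polymerase (1.37-fold and 1.42-fold). The median was 0.51. For Pold1 the representative probe set may bind several transcripts, and a second probe set turned the direction, with signals of 536 and 692 and a log2 ratio of -0.37.

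Proteins that work at the moving fork were split. Fen1, the nuclease that trims primers from lagging strand fragments, had 2912 in DNR and 1274 in WT cells, 2.29-fold higher. Its representative probe set may bind several transcripts, and its second probe set gave a log2 ratio of 0.78. Rfc5, a subunit of the clamp loader, had 1449 and 708, 2.05-fold higher. The other clamp loader subunits were closer to equal, with Rfc4 1.26-fold higher, Rfc2 1.06-fold higher and Rfc3 1.21-fold lower (491 against 594). The probe sets of Rfc2 differed, and those other than its representative gave 0.91 and 0.84. Pcna, the sliding clamp that the loader places on DNA and a marker often used for cycling cells, had 19480.1 in DNR and 22680.2 in WT cells, 1.16-fold lower, with a single probe set. Rpa1 and Rpa2 coat single-stranded DNA together. Rpa1 was 1.18-fold lower (7380.0 against 8681), with its second probe set at -0.19, whereas Rpa2 was 1.63-fold higher (1335 against 819), with its second at -0.12. Lig1, the ligase that seals the fragments, was equal within 1.01-fold (837 against 829). The median of the 9 genes was 0.09, with 6 higher and 3 lower.

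The cyclins that start S phase and the E2F factors upstream of them also parted. Ccne2, cyclin E2, had 413 and 207, which falls just short of the threshold, and has a single probe set. Ccne1, cyclin E1, was 1.66-fold higher (432 against 260), with its second probe set at 0.65. E2f2, an activating E2F factor, was equal (632 against 635). E2f1, the best known member of that class, exceeded the floor in WT Tregs only, and barely (57.5 against 114), so its level is hardly above background on either array. The median of these 4 genes was 0.36, with 2 higher and 2 lower.

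Genes that copy chromatin along with DNA were all higher in DNR Tregs, though none by 2-fold with its representative probe set. Ezh2, the histone methyltransferase of the Polycomb complex, had 4151 and 2680.1, 1.55-fold higher. Chaf1b, a subunit of the histone chaperone CAF-1, had 611 and 397, 1.54-fold higher. Hells, a chromatin remodeller that supports DNA methylation, was 1.45-fold higher (1353 against 935), and Asf1b, another histone chaperone, 1.38-fold higher (1042 against 755). Uhrf1, which brings the maintenance methyltransferase to new DNA, was 1.23-fold higher (1171 against 949). Dnmt1, that methyltransferase, was nearly equal (2482 against 2372). The median of the 6 measured genes was 0.50. A higher DNR signal was also seen in all 9 of their probe sets that exceeded the floor in both genotypes. Among these, a second probe set of Hells just passed 2-fold (311 against 155, a log2 ratio of 1.004).

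Of the checkpoint genes, which guard stalled forks, Brca1 stood past the threshold. Brca1, which acts in repair of broken and stalled forks, had 494 in DNR and 218 in WT cells, 2.26-fold higher. A second Brca1 probe set, above the floor on the DNR array alone (208 against 96.3), gave a log2 ratio of at least 0.91. Tipin, which holds the fork machinery together, was 1.23-fold higher (1789.8 against 1455), and Chek1, the checkpoint kinase, 1.18-fold higher (517 against 438).

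**Figure D3:**
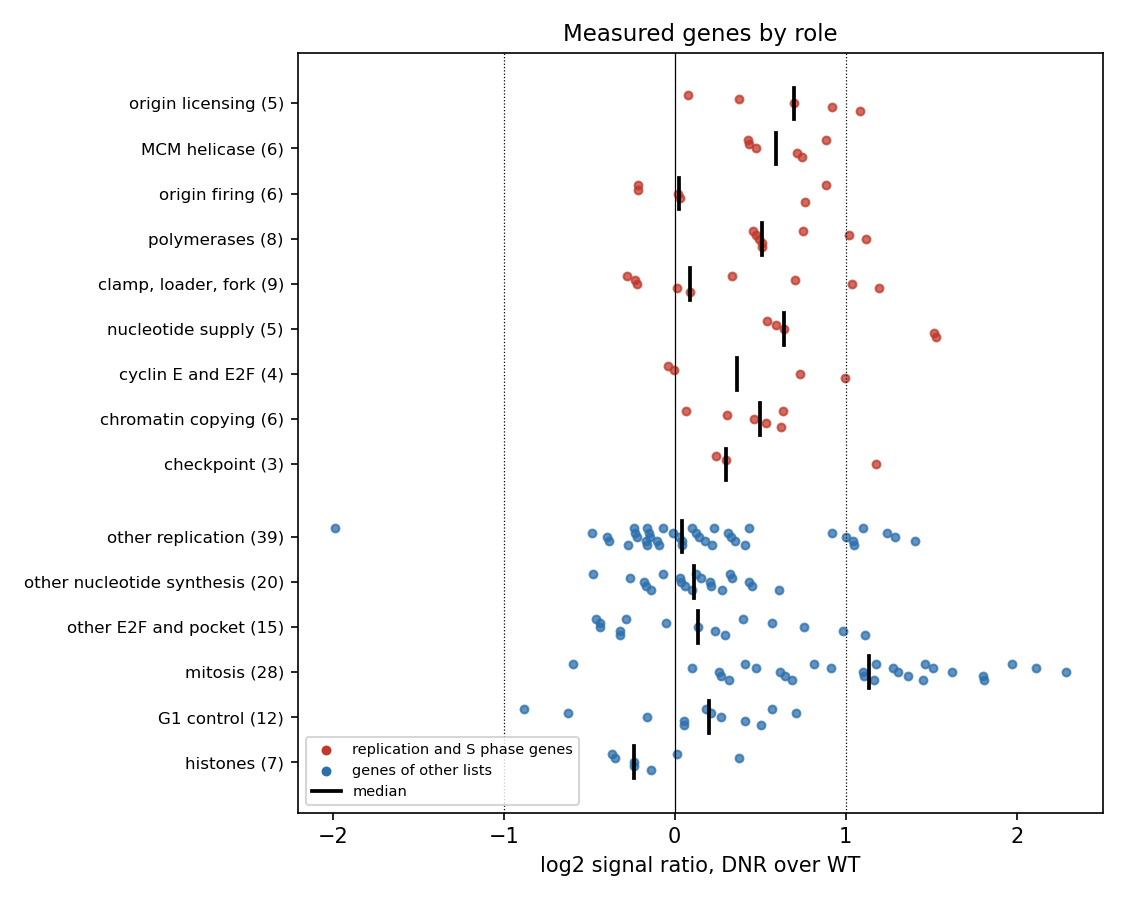
Log2 signal ratio (DNR over WT) of each measured gene, by role for the replication and S phase genes (red) and for 6 other lists (blue), with the number of genes in brackets and the median as a black bar. Dotted lines mark 2-fold. Medians of the red groups run from 0.03 for origin firing to 0.70 for origin licensing, and the mitosis list has a median of 1.14.

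Genes with several probe sets give the only spread that the table holds. In 3968 genes, 2 or more probe sets exceeded the floor on both arrays, and around the gene's mean log2 ratio they had a robust SD of 0.39. It leaves out all variation between animals, sorts and arrays. Of the 52 measured genes, 34 were higher by more than that SD and 0 were lower by more than it, where 20.9% of all measured genes were higher and 17.8% lower by more than it. Among the 26 genes here with at least 2 such probe sets, the probe sets went the same way in 18 (69.2%), against 45.8% of the 3968. In 16 of the 18 all were higher, and in Cdc7 and Rpa1 all were lower. The 8 genes whose probe sets went both ways were Cdt1, Mcm3, Gins2, Pold1, Rfc3, Rpa2, Rrm1 and E2f2. Counted over probe sets, 69 of the 83 that exceeded the floor in both genotypes were higher, against 48.8% of all 18075 such probe sets.

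**Figure D4:**
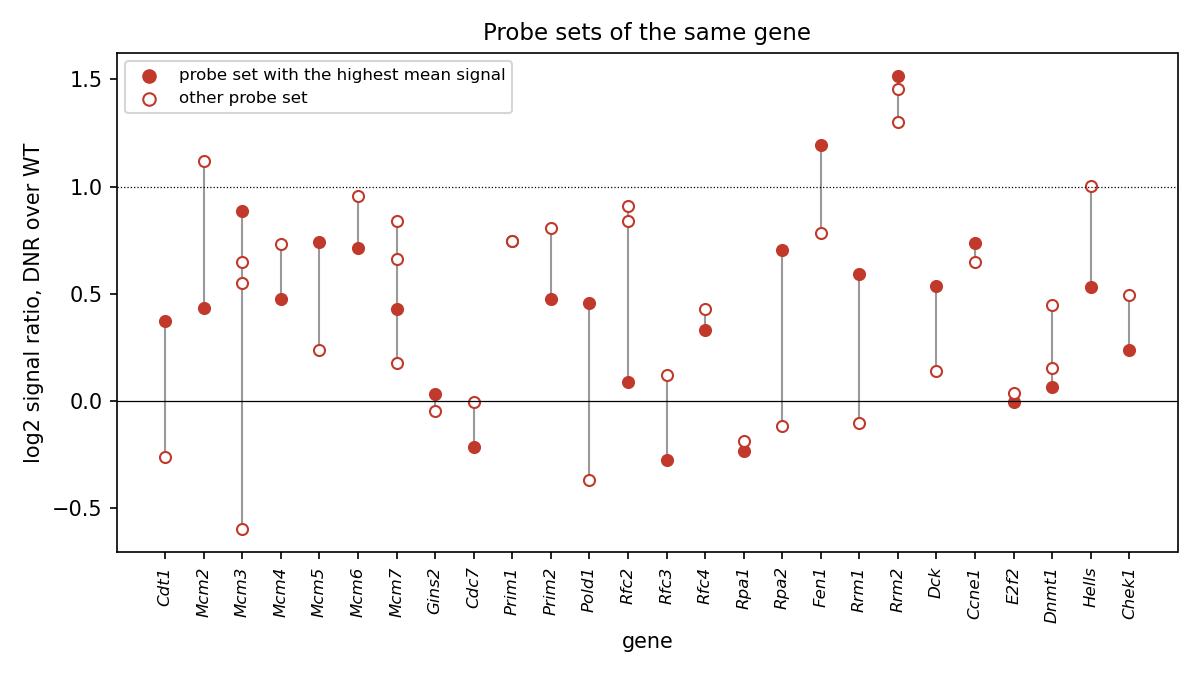
Log2 signal ratio (DNR over WT) of every probe set that exceeds the floor in both genotypes, for the 26 genes with at least 2 of them. Filled points are the probe set that represents the gene, open points are its others, and the dotted line marks 2-fold. All 3 probe sets of Rrm2 lie above 2-fold, whereas those of Mcm3 run from -0.60 to 0.89.

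Other genes of the replication pathway, from a list that leaves out the 54, were more mixed. Of 39 measured genes 22 were higher and 17 lower, with a median of 0.04 against 0.01 over all measured genes. Taking each gene's median over its probe sets, these medians were 0.17 and 0.02. At least 2-fold higher were 7 (17.9%, against 4.0%). Ccna2, cyclin A2, which drives S phase onward, was 2.44-fold higher (1471 against 602), and its second probe set had 1184 and 474. Brca2, which acts in repair of damaged forks, was 2.36-fold higher (377 against 160). The single gene at least 2-fold lower was Mcm9, a relative of the helicase with a role in repair, which is named after its values were seen. It exceeded the floor in WT Tregs only (29.7 against 439), at least 3.96-fold lower by its brightest probe set. The 1 Mcm9 probe set that exceeded the floor in both genotypes had 127 and 194, a log2 ratio of -0.61. The remaining subunits of the origin complex, Orc2 to Orc5, had log2 ratios between -0.39 and 0.04 by their representative probe sets, where Orc1 had at least 1.08. Their other probe sets above the floor on 1 array or both ran from -0.97 to 0.19, with both ends in Orc2. The second Orc1 probe set gave at least 0.64.

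A list of E2F factors and pocket proteins outside the 54 also holds Tfdp1, Tfdp2, Lin9, Lin37, Lin52 and Lin54. It had a median of 0.13 over 15 measured genes, with 8 higher and 7 lower. Among its E2F factors and pocket proteins, E2f7, E2f8 and Rbl2 were higher. E2f3, E2f4, E2f5, E2f6 and Rb1 were lower, with log2 ratios from -0.44 to -0.28, and Rbl1 was barely lower (1878 against 1946). E2f4 exceeded the floor in WT Tregs alone (76.3 against 150). Other probe sets were higher for E2f3 (0.18), E2f6 (0.10), E2f5 (0.23) and Rb1 (0.03), the last 2 above the floor on the DNR array alone. Another of E2f5 gave -0.50. Of the Tfdp and Lin genes only Lin52, above the floor in WT Tregs alone, was lower. Tfdp1 was 1.69-fold higher (3181 against 1882). The 1 gene past 2-fold was E2f8, a repressing E2F factor that is itself made in S phase, 2.16-fold higher (426 against 197). Taking each gene's median over its probe sets, the list's median was -0.0091.

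Genes of mitosis, the stage that follows, had larger ratios than the replication genes. Of 28 measured mitosis genes 27 were higher and 16 at least 2-fold (57.1%, against 4.0% of all measured genes), with a median of 1.14. For the replication genes the same values were 45 of 52, 8 and 0.51. Aurkb, a kinase of chromosome segregation, was 4.88-fold higher (693 against 142), beyond the 2.88-fold of Tk1. Both Aurkb probe sets may bind several transcripts. The second, above the floor on the DNR array alone (366 against 92.1), gave a log2 ratio of at least 1.72. Without probe sets that may bind several transcripts the medians were 0.86 and 0.50. The difference between the lists was not tested.

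**Figure D5:**
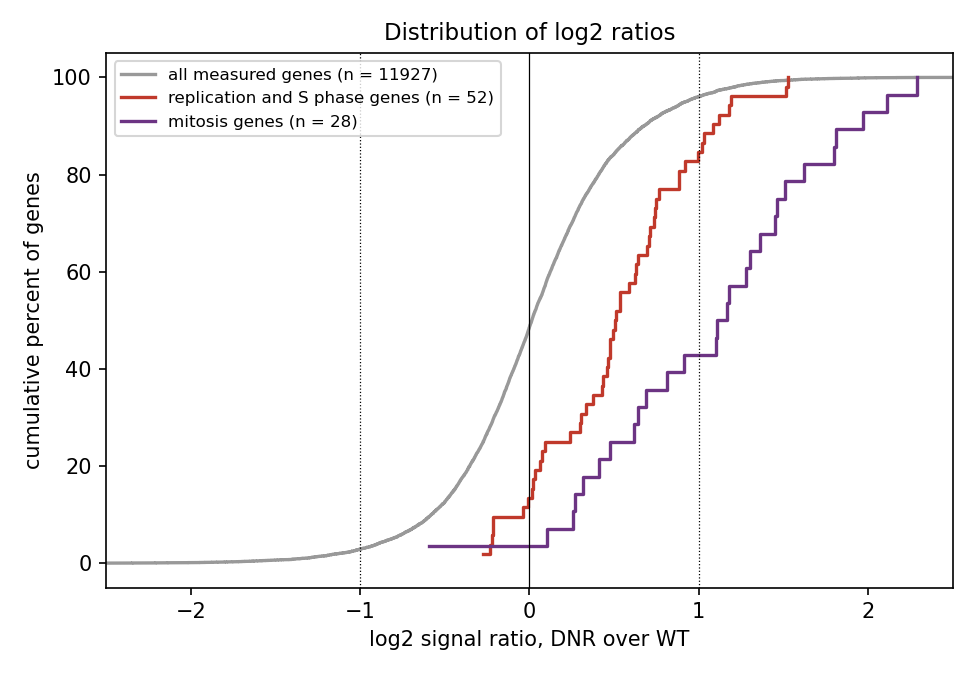
Cumulative percent of genes against the log2 signal ratio (DNR over WT) for the 52 measured replication and S phase genes, the 28 measured mitosis genes and all 11927 measured genes. Dotted lines mark 2-fold. The red curve crosses 50% at a ratio of 0.51, between the grey curve at 0.01 and the purple one at 1.14.

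Markers bore on the label and on what else the sorts held. Foxp3 was 1.21-fold higher on the DNR array (4550 against 3754), and all 8 Treg markers were above the floor on both arrays, with 0 differing by 2-fold. Markers of other cells were counted when above the floor on 1 array or both. They were 3 of 8 for B cells, 5 of 9 for erythroid cells and 5 of 7 for CD8 T and NK cells. For plasma cells they were 6 of 7, for macrophages 9 of 11 and for neutrophils 4 of 10, against 11927 of all 18193 genes. On both arrays, 1 B cell gene, 3 erythroid genes and 4 CD8 T and NK cell genes exceeded it. So did 5 plasma cell, 9 macrophage and 2 neutrophil genes, against 9281 of all 18193 genes. Summed over each list, the DNR and WT signals were 1326 and 988 for B cells, 4256 and 5232 for erythroid cells, 1276 and 1125 for CD8 T and NK cells, 12601 and 12457 for plasma cells, 6276 and 7410 for macrophages and 1479 and 779.6 for neutrophils. Of the 4 measured neutrophil genes, 3 were at least 2-fold higher with DNR RNA. These were Mmp9 (537 against 184), Ngp (287 against 37.7) and S100a8 (285 against 47.1). Ngp and S100a8 exceeded the floor on the DNR array alone. The other measured one, Elane, was 1.38-fold lower (173 against 238), and S100a9 was below the floor on both arrays (86.8 and 40.5). Of the 9 measured macrophage genes 8 were lower, and C1qa (330 against 788), C1qc (185 against 386) and Vcam1 (478 against 974) were at least 2-fold lower. Cd68 was 1.70-fold lower (125 against 212) and Lyz2 1.49-fold lower (449 against 668). C1qb was nearly equal (641 against 652), Adgre1 was 1.09-fold lower and Csf1r 1.24-fold lower. Cybb was 1.48-fold higher (2259 against 1531). Prdm1 of the plasma cell list was 2.49-fold higher (690 against 277). Most of the plasma cell sums came from Xbp1 (8270 against 9333) and Irf4 (3155 against 2469). Jchain (193 against 195) and Mzb1 (131 against 131) had low signals, and Tnfrsf17 was below the floor on both arrays. Most of the erythroid sums came from Tfrc (3361 against 4257). Cd79b of B cells (869 against 666) and Gata1 of erythroid cells (423 against 441) exceeded the floor on both arrays. These marker genes were named after their values were seen. Of other defining markers, Pax5 of B cells, Hba-a1 and Alas2 of erythroid cells and Camp, Ltf and Mpo of neutrophils were below the floor on both arrays. Their part in the ratios of the replication genes was not tested. The arrays also differed in their spike-in controls. All 18 hybridisation controls and 20 of 24 poly-A controls had a higher signal with DNR RNA, with median folds of 1.95 and 1.29.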

How the data were processed

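RNA of 1 DNR and 1 WT Treg sample was hybridised to Affymetrix mouse arrays. Each deposited value is the intensity of 1 probe set on 1 array, computed with MAS5 according to the submitters' processing notes. The mean without the outer 2% of values was 500.0 on each array, so the authors had scaled them alike, which multiplies background with signal. The sources used here give no software version and no genome build. Of 45101 probe sets, 64 controls were left out, and 34945 of the other 45037 had exactly 1 gene in the platform annotation. Symbols were checked through Entrez identifiers against RefSeq, and 0 changed.

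Ratios were computed in Python 3.11.15 with pandas 2.3.3 and numpy 2.4.6, and the procedure was checked on simulated data. A probe set ending in _s_at or _x_at was taken as able to bind several transcripts. The number of arrays limits the precision, and no test was made. Every gene of the 54 past 2-fold is named with its signals, as are genes whose probe sets disagree, and up to 3 genes of each other list past 2-fold above the floor on both arrays. The further genes of the 54 were named so that all are accounted for. Mcm9, Orc2 to Orc5, genes of the G1 list and markers of other cells fall outside this rule and were chosen after their values were seen. The same holds for Paics, Gart, Shmt2, Atic and Gmps, and for genes of the E2F and pocket list other than E2f8. The genes and lists were chosen with earlier results of these data known. Alternatives were the floor at the 40th or 60th percentile or none, the median over probe sets, no probe sets that may bind several transcripts, quantile normalization, centring on the median ratio, genes above the floor on both arrays, and thresholds of 1.5-fold and 3-fold.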

Additional observations from a re-analysis of the deposited data

How the results depend on the processing

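No paired analysis was possible because each genotype has 1 array, so no array could be left out either. Across the 8 alternatives in floor, probe set and scaling, which measure between 50 and 53 of the genes, between 6 and 9 were at least 2-fold higher (11.5% to 17.3%), 0 were 2-fold lower in any, and between 43 and 46 had a higher DNR signal (82.7% to 88.5%). The share of all genes at least 2-fold higher moved more, from 2.52% with the floor at the 60th percentile to 7.30% at the 40th and 19.9% without a floor, where it passed the 15.1% of the replication genes. The threshold itself set the count, which was 23 at 1.5-fold and 0 at 3-fold. The median of the measured genes stayed between 0.50 and 0.54. A move was judged against the probe set SD of 0.39, divided by the square root of the number of genes for a median. By that measure 68 of 72 medians of role groups were unmoved. The exceptions were origin licensing, 0.49 with the floor at the 60th percentile, where the bound of Orc1 is lower by construction, cyclin E and E2F, 0.73 with that floor and with genes above the floor on both arrays, since both leave out E2f1, and the fork proteins, 0.29 with the median over probe sets. The median of other replication genes rose from 0.04 to 0.17 with the median over probe sets. The median of the list of other E2F, pocket, Tfdp and Lin genes turned to -0.0091 with the median over probe sets, and the cause was not tested. Of 413 values of single genes 403 were unmoved. Where a gene has 1 probe set well above the floor, most alternatives leave its ratio the same by construction. Mcm5 fell from 0.74 to 0.24 and Pold1 turned to -0.37 without probe sets that may bind several transcripts. Of the 8 genes past 2-fold, Fen1 was under it in 2 alternatives (lowest 0.78) and Orc1, a bound, in 2 (lowest 0.49), while Brca1, Pola1, Pole, Rfc5, Rrm2 and Tk1 stayed past it in all 8. Pola1, Pole, Rfc5 and Tk1 each have 1 probe set above the floor, so only quantile normalization and centring could change their ratios. Signals near the floor limit what can be said of Tyms, E2f1 and Orc1.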

Other observations

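Regulators of G1 phase, which decide whether a cell enters S phase, showed no gene past 2-fold among 12 measured. Of all measured genes 4.0% were at least 2-fold higher and 2.93% lower, so a list of 12 would hold few such genes at that share. Their median log2 ratio was 0.20, with 9 higher (75%, against 51.4% of all measured genes) and 3 lower. The inhibitors of cyclin-dependent kinases differed in direction, and those given here were named after their values were seen. Cdkn1b, which encodes p27 and holds resting T cells in G0 or G1, was 1.84-fold lower (4378 in DNR and 8065 in WT cells), and another probe set gave -0.48. Cdkn2d, which encodes p19 of the INK4 family, was 1.54-fold lower (1798.5 against 2775). Cdkn2c, p18 of the same family, was 1.63-fold higher (1256 against 770), and Cdkn1a, p21, was nearly equal (842 against 810). Cdk6, a kinase that these proteins inhibit, was 1.48-fold higher (2898 against 1952), and Ccnd2, cyclin D2, was 1.16-fold higher (16315 against 14060). The other probe sets of Ccnd2 ran from -0.20 to 0.44. Ccnd1, cyclin D1, was 1.42-fold higher (237 against 168). Ccnd3, cyclin D3, was 1.12-fold lower (1099.5 against 1229.7), and a second probe set gave -0.60.

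Histone genes, which supply protein for new chromatin in S phase, did not have the higher signal of the replication genes. Of 7 measured genes 2 were higher and 5 lower, with a median of -0.24, and 4 were above the floor on both arrays. Transcripts of most such genes lack a poly-A tail, and their ratios here come from signals of at most 1221.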
